A study of Oryza sativa Japonica Group with 6 samples.

Results

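Calcium-binding proteins and calcium-regulated kinases were followed in rice coleoptiles. The members were all non-control cDNA probes whose array description names a calmodulin, an EF-hand or other calcium-binding protein, a calcium-dependent protein kinase (CDPK), a calcineurin B-like protein (CBL), a CBL-interacting kinase (CIPK), an annexin or a centrin, with calreticulin and calnexin left out. The rule found 97 of the 21495 non-control probes, under 60 distinct descriptions. The coleoptile is the sheath around the first leaf of a grass seedling. It was compared between the wild type and the rad (reduced adh activity) mutant, both of cultivar Kinmaze and both germinated under submergence, with 15 seeds in a bottle holding 1 L of deionized water. Coleoptiles were cut by laser microdissection from frozen sections of 8 µm, and each of 6 arrays carried amplified cRNA of both genotypes in different dyes. There were 3 replicates, each on a dye-swapped pair of arrays. The labels give neither the lesion of the mutant, nor the seedlings' age, nor the number of seedlings behind a replicate. If the replicates were not grown separately, the p-values cover technical spread alone.

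Calcium ions act as a second messenger in plant cells: a stimulus opens channels, cytosolic calcium rises for a short time, and pumps and exchangers remove it again. The rise is read by proteins that carry EF-hands, a helix-loop-helix fold that binds calcium. Calmodulin and its relatives have no enzyme activity and change the activity of the proteins they bind. CDPKs join a kinase domain to a calmodulin-like domain in 1 protein, whereas CBL proteins recruit separate CIPK kinases. Annexins bind membrane phospholipids when calcium is present. Oxygen shortage is one of the stimuli known to change cytosolic calcium in plant cells.

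Each value below is a log2 ratio of mutant over wild type. Values given for replicates 1, 2 and 3 are the means of the dye-swapped arrays of that replicate, and the mean ± SD is over these replicates (n = 3). A cDNA was called when its limma p-value, adjusted by the Benjamini-Hochberg method over all 19947 probes tested, was under 0.05. Per channel, 90.4% to 95.7% of the non-control probes stood well above background, and the median spot had 3.998 to 10.3 times the signal of its local background. Precision is limited by there being only 6 arrays. Descriptions are best matches, often from another species, so they name the kind of protein and not the rice locus; cDNAs that share a description may come from 1 gene or from relatives.

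Most of these cDNAs differed little between the genotypes, and a few rose strongly. In such tissue samples fewer cells of a type and less RNA per cell cannot be told apart. Of the 97 members 91 were measured, 5 were too dim and 1 had an outlier spot. In the mutant 15 of the 91 were higher and 7 were lower, or 16.5% and 7.69%. Over all probes tested 14.6% were called higher and 10.1% lower, and 24.7% in either direction, so the share of 24.2% among the members was near that of the array as a whole. The median of the members was 0.02 and that of all probes tested was -0.01. At least 2-fold rises were called for 6 of the 91 members (6.59%), against 357 of 19947 probes (1.79%). At least 2-fold falls were called for 0 members and for 164 probes of the array (0.822%). These 2-fold counts moved with the background handling. With the scanner's processed signals 7 members rose at least 2-fold and 1 (AK105920) fell at least 2-fold, beside 3.02% and 1.5% of all probes tested. The number of such rises was 4 without replicate 2 and with just the Cy3-labelled mutant arrays. All 22 called members had 1 sign in the 3 replicates, which such a call largely requires, and 21 had it on all 6 arrays. Without replicate 1 the counts were 8 higher and 3 lower, without replicate 2 they were 7 and 1, and without replicate 3 they were 14 and 3. Calls were lost over the whole array in these fits: 7.47%, 5.94% and 22.9% of all probes tested were called, beside 24.7% with all 3 replicates. A call lost without 1 replicate is therefore not particular to these members.

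**Figure D1:**
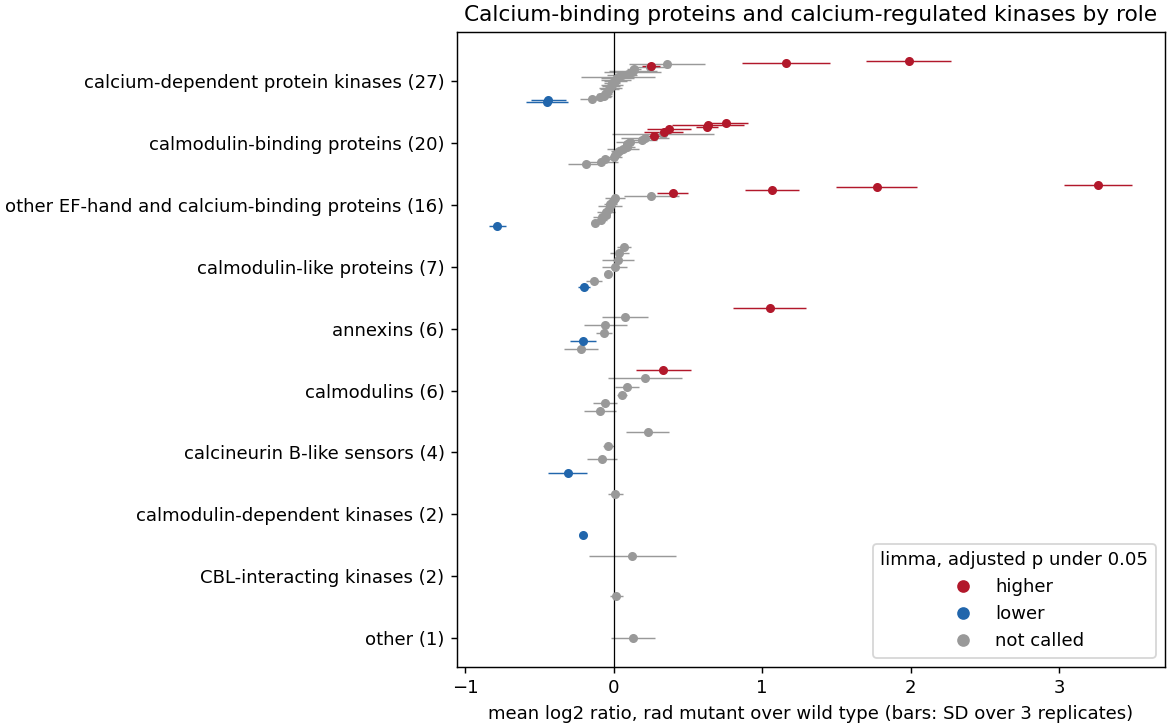
Mean log2 ratio, mutant to wild type (x axis), for each of the 91 measured cDNAs, grouped by role (y axis, number measured in brackets); bars are the SD over 3 replicates and colours give the limma call. The 6 cDNAs beyond a log2 ratio of 1 lie among the EF-hand proteins, the CDPKs and the annexins, and none of the CBL, CIPK or calmodulin-like cDNAs reaches that size.

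Among small EF-hand proteins the strongest rises were those of a pair of cDNAs like wheat CCD1, a small calcium-binding protein first described as induced by a fungal elicitor in cultured wheat cells. AK109278 read 3.23, 3.05 and 3.51 in replicates 1, 2 and 3. Its normalised log2 signal was 8.23, 8.61 and 8.70 in the wild type and 11.5, 11.7 and 12.2 in the mutant, so the genotypes did not overlap. The mean was 3.26 ± 0.23, or 9.60-fold (adjusted p = 0.00204). AK111852 has the same description and rose by less, with 1.69, 1.55 and 2.07 in the replicates and a mean of 1.77 ± 0.27, or 3.41-fold (adjusted p = 0.0043). The highest replicate of AK111852 lay below the lowest of AK109278; the difference between these cDNAs was not tested.

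Another EF-hand cDNA, like the bean protein HRA32 that is described as associated with the hypersensitive reaction, a form of local cell death at infection sites, was also higher. AK099476 read 1.18, 1.16 and 0.85, with wild-type log2 signals of 10.2, 10.2 and 10.3 against 11.4, 11.4 and 11.1 in the mutant. The mean was 1.07 ± 0.18, or 2.09-fold (adjusted p = 0.00512). A cDNA like the Arabidopsis EF-hand protein At5g04170 (AK065151) rose by 0.40 ± 0.10 (adjusted p = 0.013), and its adjusted p was 0.0608 without replicate 1 and 0.0739 without replicate 2. Its mean was 0.61 by normexp with no offset and 0.69 with the scanner's processed signals.

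The deepest fall among all members was that of a cDNA like the calcium-binding protein cbp1 of the legume Lotus. AK105920 read -0.73, -0.84 and -0.77 in replicates 1, 2 and 3, with wild-type log2 signals of 8.47, 8.27 and 8.82 and mutant signals of 7.74, 7.43 and 8.05. It was lower in the mutant on all 6 arrays, with a mean of -0.78 ± 0.05, or 1.72-fold lower (adjusted p = 0.0035). With the scanner's processed signals the mean was -1.03 (adjusted p = 0.0041). The other cDNAs with the cbp1 description were not called: AK100200 read -0.08 ± 0.04 (adjusted p = 0.174) and AK064732 read -0.05 ± 0.06 (adjusted p = 0.417).

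In all, 4 of the 16 other EF-hand and calcium-binding cDNAs rose and 1 fell, with a median of -0.02. These are 25% and 6.25%, beside 14.6% and 10.1% over all probes tested. Without replicate 3 the number that rose was 5, and without either other replicate it was 3. The remaining 11 were not called. They included cDNAs like LETM1, a protein of the inner mitochondrial membrane in animals, at 0.25 ± 0.19 (AK100424, adjusted p = 0.096) and -0.02 ± 0.08 (AK068782, adjusted p = 0.731). The 3 cDNAs like barley bci-4, all above background on all arrays, lay between -0.05 and 0.01. A rice calcium-binding protein (AK104328) stood at -0.03 ± 0.01 (adjusted p = 0.516).

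Calmodulins themselves moved little. These proteins are nearly identical between plant species, and several rice genes encode the same protein, so a probe's value may hold signal from more than 1 calmodulin gene. Of 6 calmodulin cDNAs 1 was called, or 16.7%, beside 24.7% over all probes tested. The called one, AK071852, read 0.14, 0.36 and 0.51, with a mean of 0.33 ± 0.18 (adjusted p = 0.0496). It was the 1 called member with an array of opposite sign, at -0.01 in replicate 1 with the mutant in Cy3, and without replicates 1, 2 and 3 its adjusted p was 0.0582, 0.200 and 0.0935. With median centring in place of loess it was 0.194. The other cDNA of this description (AK063566) read 0.06 ± 0.03 (adjusted p = 0.314), CaM1 (AK059756) read 0.21 ± 0.25 (0.22) and CaM2 (AK059534) read -0.09 ± 0.11 (0.277). For AK059756 replicate 3 alone was high, with 0.12, 0.02 and 0.49 in replicates 1, 2 and 3.

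Calmodulin-like proteins are relatives with diverged EF-hands. Of 7 measured cDNAs 0 rose and 1 fell, or 14.3% called, beside 24.7% over all probes tested. By limma 2 had an unadjusted p under 0.05, as had 7635 of the 19947 probes tested. The one that fell is described as a rice calmodulin-like protein (AK070889) and read -0.22, -0.16 and -0.22 in the replicates, with a mean of -0.20 ± 0.04 (adjusted p = 0.026). The fall was larger with the mutant in Cy3, where the arrays gave -0.26, -0.29 and -0.42, whereas those with it in Cy5 gave -0.18, -0.02 and -0.03 and did not call it (adjusted p = 0.335). With the replicate as a block on the 6 arrays its adjusted p was 0.0505, and leaving out replicate 1, 2 or 3 gave 0.107, 0.122 or 0.0756. Its mean was -0.35 both by normexp with no offset and with the scanner's processed signals, where it was called (adjusted p = 0.0189 and 0.0205). A banana-like cDNA (AK107501) read -0.13 ± 0.05 (adjusted p = 0.0814), and the other 5 lay between -0.04 and 0.07.

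CDPKs formed the largest group, with 27 measured cDNAs under 19 descriptions. In the mutant 3 rose and 2 fell, or 18.5% called, and the median was 0.01. The shares were 11.1% higher and 7.41% lower, beside 14.6% and 10.1% over all probes tested. Without replicate 2 the number that rose was 1, and with the replicate as a block on the 6 arrays it was 6. The strongest of them was AK103306, which is described as like the Arabidopsis kinase At3g51850. It read 1.96, 1.71 and 2.28, with log2 signals of 7.26, 7.07 and 7.32 in the wild type and 9.22, 8.78 and 9.61 in the mutant. Every mutant value lay above every wild-type value, and the mean was 1.99 ± 0.29, or 3.96-fold (adjusted p = 0.00395). The size of this rise depended on the background handling, with a mean of 2.50 by normexp with no offset and 2.56 with the scanner's processed signals. A cDNA like the Arabidopsis CDPK6 at At4g23650 (AK070346) read 0.83, 1.25 and 1.40, with a mean of 1.16 ± 0.30, or 2.24-fold (adjusted p = 0.00831). Its call was lost without replicate 2 (adjusted p = 0.0544).

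Rice CDPK genes named in the descriptions changed by less. OsCDPK7, whose overexpression in rice is known for raising tolerance to cold and salt, was covered by 2 cDNAs. AK066495 read 0.32, 0.19 and 0.25 and rose by 0.25 ± 0.06 (adjusted p = 0.02), and AK059786 read 0.13 ± 0.16 (adjusted p = 0.265). Leaving out replicate 1, 2 or 3 gave AK066495 an adjusted p of 0.0835, 0.0911 or 0.052. CDPK1 (AK060738) read 0.14 ± 0.05 (adjusted p = 0.0682), CDPK5 (AK064772) 0.03 ± 0.25 (0.865), CDPK12 (AK066500) 0.01 ± 0.08 (0.871) and kinase 2 (AK069341) -0.09 ± 0.08 (0.218). The 3 cDNAs of kinase 11 lay between -0.15 and 0.06, and none was called. CDPK5 was 0.30 in replicate 1 and -0.18 in replicate 3, so its replicates straddled 0.

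A pair of CDPK cDNAs fell. AK058494, with the same At3g51850 description as the strongly raised AK103306, read -0.30, -0.57 and -0.48, with a mean of -0.45 ± 0.14 (adjusted p = 0.0153). AK065456, a rice CDPK without a number, read -0.57, -0.40 and -0.35, with a mean of -0.44 ± 0.12 (adjusted p = 0.0126). When replicate 2 was left out, AK058494 had an adjusted p of 0.0811 and AK065456 one of 0.0737. Of the other cDNAs with the At3g51850 description AK106812 read 0.02 ± 0.10 (adjusted p = 0.857), AK101942 read -0.07 ± 0.06 (0.3) and AK100474 was not well above background on any array. The 4 measured cDNAs of this description thus ran from -0.45 to 1.99. A CPK7-like cDNA (AK066615) read 0.07, 0.54 and 0.48 and was not called (0.36 ± 0.26, adjusted p = 0.0796).

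**Figure D2:**
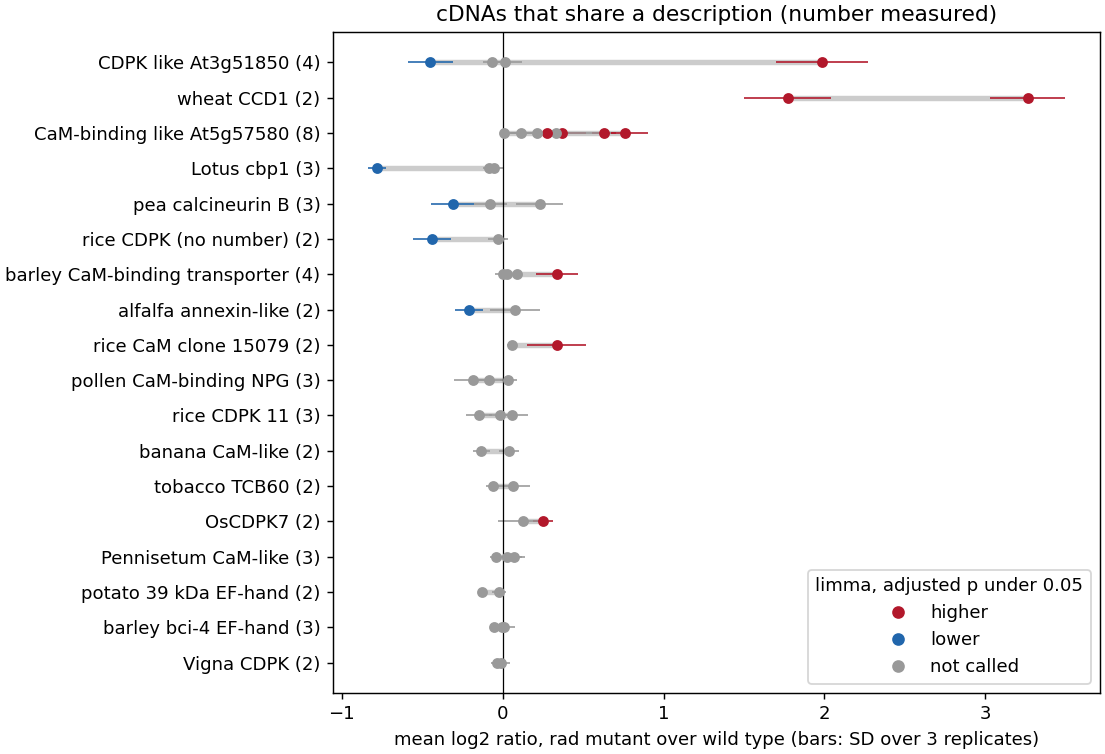
Mean log2 ratio, mutant to wild type (x axis), of cDNAs that share a description, 1 row for each of the 18 descriptions with 2 or more measured cDNAs (number in brackets, CaM for calmodulin); bars are the SD over 3 replicates. The cDNAs like At3g51850 run from -0.45 to 1.99, those like CCD1 are both higher, and those like At5g57580 all lie above 0.

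Other kinases and sensors of the network showed small differences. Calcium/calmodulin-dependent kinases need both calcium and calmodulin. The CaMK3-like cDNA (AK067709) read -0.23, -0.18 and -0.21, with a mean of -0.21 ± 0.02 (adjusted p = 0.0205), and lost its call without any 1 of the replicates (adjusted p between 0.0581 and 0.124). The CCaMK-like cDNA (AK070533) read 0.01 ± 0.05 (adjusted p = 0.863). Both CIPK cDNAs were not called, with CIPK4-like AK111510 at 0.13 ± 0.29 (adjusted p = 0.5) and CIPK21-like AK111625 at 0.02 ± 0.04 (0.779). AK111510 was split between replicates, at 0.09, -0.15 and 0.44.

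CBL-type sensors bind calcium through EF-hands and have no kinase domain. Of 4 measured cDNAs 0 rose and 1 fell, or 25% called, of few cDNAs, beside 24.7% over all probes tested. AK111505, like pea calcineurin B, read -0.33, -0.17 and -0.43, with a mean of -0.31 ± 0.13 (adjusted p = 0.0327), and its adjusted p was 0.152, 0.0641 and 0.0688 without replicates 1, 2 and 3. Another cDNA of that description pointed the other way without a call: AK112092 read 0.19, 0.39 and 0.11 (0.23 ± 0.15, adjusted p = 0.0763). With the replicate as a block it was called higher (adjusted p = 0.0112). The remaining one, AK111887, read -0.08 ± 0.10 (adjusted p = 0.351), and a cDNA like the Arabidopsis sensor at At5g47100 (AK100352) read -0.04 ± 0.04 (0.521).

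Proteins described as binding calmodulin were the group with most rises: 6 of 20 measured cDNAs were higher and 0 were lower, and 17 lay above 0. That is 30% called higher, beside 14.6% over all probes tested, and 85% above 0, beside 46.8%. The group median was 0.10, and in replicates 1, 2 and 3 it was 0.08, 0.12 and 0.09. Only 7 descriptions stand behind the 20 cDNAs, and 8 of them share 1. Without replicate 1 and without replicate 2 the number called was 2 each time.

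The shared description is that of a putative calmodulin-binding protein like Arabidopsis At5g57580, and 4 of its 8 measured cDNAs rose. AK111442 read 0.61, 0.77 and 0.90, with a mean of 0.76 ± 0.14, or 1.69-fold (adjusted p = 0.00614). It was dim, well above background on all 6 arrays in the mutant and on 4 in the wild type, and its size depended on the background handling. By normexp with no offset the mean was 1.73 (adjusted p = 0.00371), and with the scanner's processed signals it was 2.19 (0.00374), so the rise was called under each but its size is uncertain. AK067865 read 0.71, 0.57 and 0.61, with a mean of 0.63 ± 0.08 (adjusted p = 0.00472). AK073250 and AK067126 rose by 0.37 ± 0.15 (adjusted p = 0.026) and 0.27 ± 0.07 (0.019), and both lost their calls without replicate 1 or 2 (adjusted p between 0.0815 and 0.117); AK067126 lost it without replicate 3 as well (0.0505). AK102354 differed between replicates, at -0.02, 0.35 and 0.67, and was not called (adjusted p = 0.168). The other 3 lay between 0.01 and 0.21, and a further cDNA of this description (AK109582) was too dim.

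The other calmodulin-binding cDNAs that rose were a heat-shock protein and a transporter. The tobacco-like calmodulin-binding heat-shock protein (AK105344) read 0.43, 0.58 and 0.90, with a mean of 0.64 ± 0.24 (adjusted p = 0.0189). It was not called without replicate 1 or 2 (adjusted p = 0.0587 and 0.0898). A cDNA like the barley calmodulin-binding transporter (AK099993) read 0.33, 0.47 and 0.21, with a mean of 0.34 ± 0.13 (adjusted p = 0.0265), and was likewise not called without replicate 1 or 2 (0.125 and 0.111). Using just the Cy3-labelled mutant arrays its adjusted p was 0.0652, and with the scanner's processed signals its mean was 0.55 (0.0243). The other 3 cDNAs of that description lay between 0.00 and 0.09. The pathogen-induced PICBP-like cDNA (AK068838) read 0.09 ± 0.06 (adjusted p = 0.198), and the pollen-type NPG-like cDNAs ran from -0.19 to 0.04 without a call.

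Annexins, which bind calcium without EF-hands, held 1 of the larger rises. Of 6 measured 1 rose and 1 fell, or 33.3% called, of few cDNAs, beside 24.7% over all probes tested. A cDNA like maize annexin p35 (AK101787) read 0.93, 1.33 and 0.89, with log2 signals of 10.9, 10.5 and 10.6 in the wild type and 11.8, 11.9 and 11.4 in the mutant. The genotypes did not overlap, and the mean was 1.05 ± 0.24, or 2.07-fold (adjusted p = 0.00738). Without replicate 1 its adjusted p was 0.0532. The maize annexin p33-like cDNA (AK072559) lay on the other side of 0, at -0.34, -0.20 and -0.12, and was not called (-0.22 ± 0.11, adjusted p = 0.0559). An alfalfa-like annexin (AK059408) fell by 0.21 on the log2 scale (SD 0.09, adjusted p = 0.0446). That call was lost without any 1 of the replicates (adjusted p between 0.0862 and 0.136), with just the Cy5-labelled mutant arrays (0.172) and with the scanner's processed signals (0.0656). The remaining 3 annexins lay between -0.07 and 0.08.

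**Figure D3:**
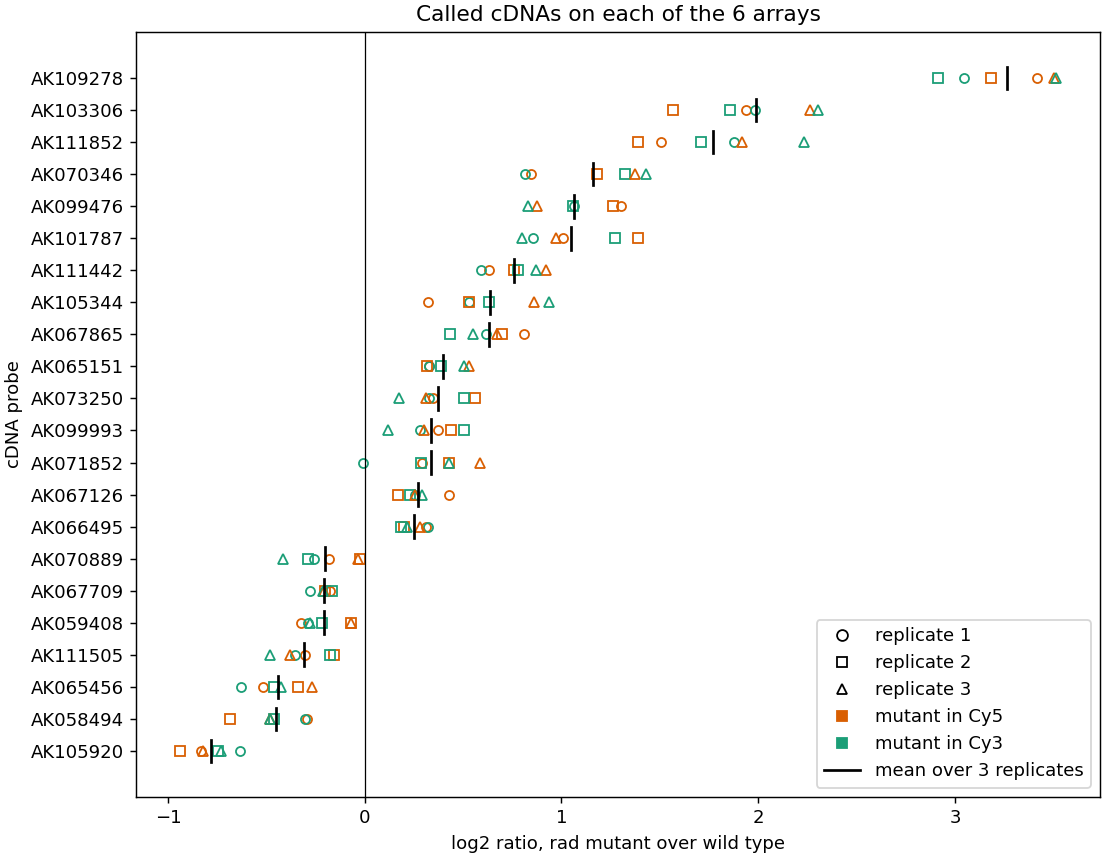
Log2 ratio of mutant over wild type (x axis) on each of the 6 arrays for the 22 called cDNAs (y axis); symbols give the replicate, colours the dye of the mutant, and the black line the mean over 3 replicates. AK109278 stands apart at the top, AK105920 at the bottom, and AK071852 has the single array below 0 among the cDNAs that rose.

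The cDNAs that were not called are bounded fairly closely under the main processing. For all 69 of them the 95% confidence interval of the limma fit lay within a 2-fold change in either direction, with the lowest bound at -0.37 and the highest at 0.71. Their means ran from -0.22 to 0.36, and 50 lay within 0.1 of 0. These intervals are for single cDNAs and are not adjusted for their number. They hold for the offset of 50, and intervals under other background handling were not computed. The values of dim cDNAs moved with that handling. AK107501 went from -0.13 to -0.21 by normexp with no offset and to -0.23 with the scanner's processed signals. Dim cDNAs that were not called, such as AK061120 at 1.76 times background, are therefore bounded less surely. The centrin cDNA (AK065782), from a small EF-hand protein of microtubule-organising centres and the cell plate, had an outlier spot and was not tested; it read 0.02, -0.01 and -0.07. The CDPK adapter protein (AK102631), which binds a CDPK and is no kinase itself, read 0.13 ± 0.15 (adjusted p = 0.244). The 5 dim members were AK071719 (EcCBL1-like), AK072981 (CPK7-like), AK100474, AK109582 and AK111834 (a calmodulin-like protein), none of them well above background in a genotype on more than 2 arrays.

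**Figure D4:**
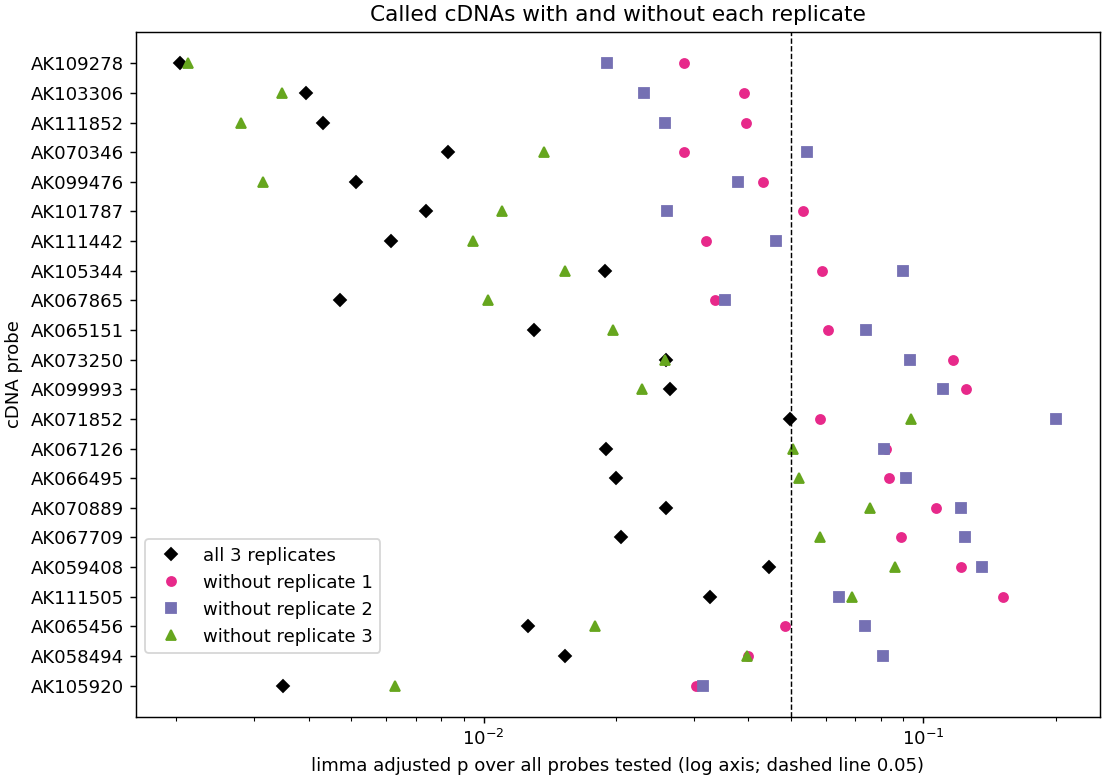
Limma adjusted p over all probes tested (x axis, log scale) for the 22 called cDNAs (y axis) with all 3 replicates and without each of them; the dashed line marks 0.05. AK109278, AK103306, AK111852, AK099476, AK111442, AK067865 and AK105920 stay left of the line without any 1 replicate.

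Genes that move calcium or lie next to these sensors were taken as lists of descriptions that exclude the members. Pumps and exchangers export calcium from the cytosol. Of 15 cDNAs so described 4 rose and 0 fell, or 26.7% called, with a median of 0.13. Over all probes tested 24.7% were called, 14.6% higher and 10.1% lower, so the share called in either direction was near that of the array. By direction it was 26.7% higher and 0% lower, of few cDNAs. Above 0 lay 66.7%, beside 46.8% over all probes tested. A type IIB calcium ATPase like Medicago MCA5 (AK100415) read 0.90, 0.93 and 1.16, with a mean of 1.00 ± 0.14 (adjusted p = 0.00442), and a second cDNA of that description (AK066259) rose by 0.42 ± 0.12 (0.0139). AK108698, described as a putative calcium-transporting ATPase like Arabidopsis At1g13210, rose by 0.52 ± 0.16 (adjusted p = 0.0135). Whether AK108698 encodes a calcium pump was not tested. Neither AK066259 nor AK108698 was called when replicate 1 was left out (adjusted p = 0.0671 and 0.0582) or when replicate 2 was (0.0705 and 0.0717). Of 11 channel cDNAs 2 rose and 4 fell, or 18.2% and 36.4%, with a median of -0.10. The CNGC6-like channel (AK105170) rose by 0.48 ± 0.06 (adjusted p = 0.00604), whereas the GLR3.4-like glutamate receptors AK099745 and AK099753 stood at -0.39 ± 0.03 (0.00649) and -0.48 ± 0.08 (0.00757). Leaving out replicate 2 ended both receptor calls (adjusted p = 0.0543 and 0.0564).

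Calreticulins buffer calcium in the endoplasmic reticulum. Of the 5 cDNAs described as calreticulin or calnexin 2 rose and 0 fell, and the median was 0.08. That is 40% called, of few cDNAs, beside 24.7% over all probes tested. These were AK099626 at 0.60 ± 0.06 (adjusted p = 0.00464) and AK107182 at 0.45 ± 0.08 (0.00838). Both are described as putative calreticulins, AK099626 like Arabidopsis At1g08450 and AK107182 like At1g20030, and what they encode was not tested. AK107182 had an adjusted p of 0.0614 without replicate 2, and its mean was 0.86 by normexp with no offset and 0.91 with the scanner's processed signals. In phosphoinositide turnover, which is a source of lipid-derived messengers, 7 of 44 rose and 8 fell, with a median of -0.02. These are 15.9% and 18.2%, beside 14.6% and 10.1% over all probes tested. AK105577, described as a putative phosphatidylinositol-4-phosphate 5-kinase like Arabidopsis At1g21920, rose by 0.36 ± 0.04 (adjusted p = 0.00823). AK071875, described as a phosphatidylinositol-4-phosphate 5-kinase, stood at -0.33 ± 0.08 (0.0138). A putative inositol-trisphosphate phosphatase (AK067194) stood at -0.40 ± 0.07 (0.00922). Without replicate 1 none of these 3 was called (adjusted p = 0.0548, 0.078 and 0.0576 for AK105577, AK071875 and AK067194), and without replicate 2 AK105577 and AK071875 were not (0.07 and 0.0567). AK071875 was also not called with just the Cy5-labelled mutant arrays (0.0526), and its mean was -0.60 by normexp with no offset and -0.70 with the scanner's processed signals.

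Enzymes known to be controlled by calcium or calmodulin were split. Of 10 measured 1 rose and 2 fell, or 30% called, beside 24.7% over all probes tested. The median was -0.08. Rice glutamate decarboxylase (AK061977), which makes GABA and is activated by calmodulin in many plants, read 1.15, 0.60 and 0.74 and rose by 0.83 ± 0.29 (adjusted p = 0.0153). Respiratory burst oxidases, NADPH oxidases that carry EF-hands and are CDPK substrates in other plants, gave the 2 falls: the rbohD-like AK099714 stood at -0.81 ± 0.09 (adjusted p = 0.004) and the StrbohB-like AK060770 at -0.57 ± 0.22 (0.0195). AK060770 was not called without replicate 1 or without replicate 2 (adjusted p = 0.0984 and 0.0584). The SOS2-like kinase (AK102270), of the same family as the CIPKs but not so named on the array, read 0.46, 0.54 and 0.45 and rose by 0.48 ± 0.05 (adjusted p = 0.00556). The C2 domain list matched 0 probes.

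Markers of tissues other than the coleoptile were read beside these values. Of 33 photosynthetic leaf cDNAs 2 were higher and 8 lower in the mutant, and 27 lay below 0. These are 6.06% higher and 24.2% lower, beside 14.6% and 10.1% over all probes tested. Above 0 lay 18.2%, beside 46.8%. Bright cDNAs add most to a summed signal. Its log2 over the leaf cDNAs was 14.9 to 15.0 in the wild type and 15.0 to 15.1 in the mutant. Their mean log2 signal went the other way, at 8.4808 to 8.5877 in the wild type and 8.3818 to 8.4795 in the mutant. Of 6 root cDNAs 0 were higher and 2 lower, or 33.3% lower, of few cDNAs, beside 10.1% over all probes tested. The log2 of their summed signal was 15.8 to 16.2 in the wild type and 14.5 to 15.9 in the mutant. The median root log2 ratio was -0.65, -0.66 and 0.01 in replicates 1, 2 and 3, so replicate 3 did not share the difference. Of 10 storage protein cDNAs of endosperm and embryo 0 were called by limma, with 1 at an unadjusted p under 0.05. Over all 19947 probes tested 24.7% were called, and 7635 had such an unadjusted p. The log2 of their summed signal was 10.9 to 11.1 in the wild type and 10.8 to 10.9 in the mutant. On the array 0 leaf, 1 root and 1 storage cDNA were well above background on no array. No list of genes that define the coleoptile was used, and the part of these tissues in the calcium results was not tested.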

How the data were processed

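Slides of Agilent design 012106 held 1 array each, and spots were quantified by Feature Extraction 8.5.1.1, per the file headers. In the deposited scanner files are mean spot intensity and median local background intensity per channel without normalization, processed intensities from which the scanner software subtracted a fitted background and which it dye-normalized, and log10 ratios of red over green. The value table deposited beside them holds the same log10 ratios to within 5e-06, all turned to mutant over wild type, with column medians of -0.000293, -0.000509 and 0 for replicates 1, 2 and 3 with the mutant in Cy5 and 0 for each with it in Cy3. Per the labels' protocols, RNA was amplified linearly before labelling.

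Ratios were computed with limma 3.58.1 in R 4.3.3: normexp background correction with an offset of 50, loess within arrays with control spots at weight 0, and dye-swap pairs averaged as technical repeats. Of 22575 spots 21495 were non-control probes; 20213 were well above background in a genotype on at least 4 arrays, of which 266 had an outlier spot and were dropped, leaving 19947. The mean ratio was tested against 0 by lmFit with eBayes (two-sided, 4.26 degrees of freedom in total), with Benjamini-Hochberg adjustment over all probes tested. Log2 signals per genotype are channel values after loess and Aquantile scaling. No member was saturated.

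The titles number the replicates. Array deviations from their own dye orientation's mean correlated within pairs at r = 0.805, 0.663 and 0.840 across all probes. Between numbers they ran from -0.714 to -0.115. Within an orientation the deviations sum to 0 over the 3 replicates, so negative values between numbers are partly built in.

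The members, role groups and lists were text patterns on descriptions, chosen with earlier results of these data known; 2 members were moved between roles from their descriptions. The cDNAs named were the 12 largest called rises, all called falls, the 2 with the smallest p per role group, all members of role groups with 5 or fewer measured, and up to 3 called per list of other calcium genes. Further members named to complete a description, a rice gene family or the untested members were chosen after their values were seen, as were the remaining called members. The RefSeq gene table (GCF_034140825.1) matched 0 of the 97 accessions, so no locus, position or sequence is given. The fit was tested on simulated data.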

Additional observations from a re-analysis of the deposited data

How the results depend on the processing

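No called member changed sign under any of the 16 alternatives, of which AK111442 was tested in 15, and 7 of the 22 kept their call in all of those in which they were tested (AK109278, AK103306, AK111852, AK099476, AK111442, AK067865 and AK105920). Leaving out 1 replicate at a time gave 1184 to 4573 called probes over the array, 7 to 14 members called higher, 1 to 3 called lower, 1 to 3 CDPKs called higher, 2 to 6 calmodulin-binding cDNAs called higher and member medians of -0.00148 to 0.0194; these fits hold 1 replicate fewer. With the replicate block on 6 arrays 23 members were called higher and 6 CDPKs, and with a dye term added 5 CDPKs; 21 and 22 of the 22 calls were kept. With eBayes trend and robust 5 CDPKs were higher. With only the arrays that carry the mutant in Cy3 14 members were lower. With 1 probe per description 9 members were higher, because fewer cDNAs are counted. The member median was 0.0264 by normexp with no offset, 0.0349 with the scanner's processed signals, 0.0339 with the deposited value table and 0.0318 with the mutant in Cy5 only; the cause was not tested. Spots near background, such as those of AK111442, limit the smallest changes that could be read.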

Other observations

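Agreement between replicates was described across cDNAs, which are not independent and share arrays. Over the 91 measured members the replicates correlated at r = 0.952 (1 and 2), 0.936 (1 and 3) and 0.947 (2 and 3), against 0.885, 0.755 and 0.840 over all probes tested. Without the 6 members that rose at least 2-fold the correlations over the other 85 were 0.807, 0.712 and 0.813. This set was chosen after its values were seen.

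Of the 18 descriptions with 2 or more measured cDNAs, 9 held cDNAs with 1 and the same call and 9 held a mixture. Among the latter, the At3g51850 description was the one with a call in each direction (AK103306 at 1.99 and AK058494 at -0.45).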
